A study of Mus musculus with 6 samples.

Results

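The matrix metalloproteinases (MMPs), the ADAM and ADAMTS proteases and the tissue inhibitors of metalloproteinases (TIMPs) were followed in lung cancer mice under artemisinin and in model animals. All genes of the count table whose symbol starts with Mmp, Adamts, Adam or Timp and a digit were taken, except Mmp8 and Mmp9, which gave 65 of 18238 genes. The 6 libraries are labelled as 3 artemisinin mice (GF1 to GF3, artemisinin replicates 1 to 3) and 3 model mice (MF1 to MF3, model replicates 1 to 3), and each was taken as 1 mouse. Both groups carried lung cancer, so no healthy lung was compared. Artemisinin is a plant sesquiterpene lactone used against malaria. Strain, age, tumour model, dissected tissue, dose and time of treatment are missing from the labels. All 7 alveolar type 2 and all 5 alveolar type 1 markers had counts in every library, so the RNA held lung tissue.

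MMPs, ADAMs and ADAMTS enzymes share a zinc-dependent catalytic domain. MMPs are made as inactive precursors and cut collagens, elastin and other matrix proteins, ADAMs mostly shed the outer parts of membrane proteins such as growth factor precursors, and ADAMTS enzymes cut proteoglycans, procollagens and von Willebrand factor. TIMPs bind the active site of these enzymes and block it. In lung, the balance of these proteins is known for its part in alveolar growth, emphysema, fibrosis and tumour invasion. RNA levels, as measured here, do not report the activation or inhibition of the proteins.

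The libraries held between 25566173 and 34745497 counts. The artemisinin libraries were more spread than the model libraries, with a biological coefficient of variation of 0.39 against 0.211. Artemisinin replicate 2 stood apart: the summed level of 5 skeletal muscle markers was 5095 normalised CPM (CPM, counts scaled to library size, here with edgeR's TMM factors) there and between 3.91 and 55.5 in the other 5 libraries, and 4 keratinocyte markers summed to 225.1 against at most 8.57. Counts of called members are therefore also given without that library.

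Timp3 and Timp2 were the most abundant members per unit of transcript length, while Timp1 and Timp4 had means of 7.97 and 1.03 FPKM. Levels of different genes are compared here in FPKM, the deposited values scaled by transcript length and library size. Timp3, whose protein binds to the matrix and also blocks some ADAM and ADAMTS enzymes, had a mean of 162.4 FPKM (SD 40.7, n = 3) in the model and 178.7 FPKM (SD 36.6, n = 3) under artemisinin. Timp2, which takes part in the activation of the MMP2 precursor at the cell surface, followed at 137.4 FPKM (SD 22.1) and 124.2 FPKM (SD 39.1). Timp3 lay above Timp2 in each of the 6 libraries, most narrowly in model replicate 1 (116.7 against 112.1 FPKM). Adam9, Adam15 and Adam10 came next, with means over all 6 libraries of 45.2, 43.8 and 41.1 FPKM, and their ranges overlapped too. Mmp15 was the most abundant MMP in the model, with a mean of 55.1 FPKM. Under artemisinin its mean of 21.7 FPKM lay below those of Mmp12 (48.0), Mmp14 (30.8) and Mmp2 (27.3). Of the 65 members, 15 had a mean of at least 10 FPKM and 29 had a mean below 1 FPKM.

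**Figure D1:**
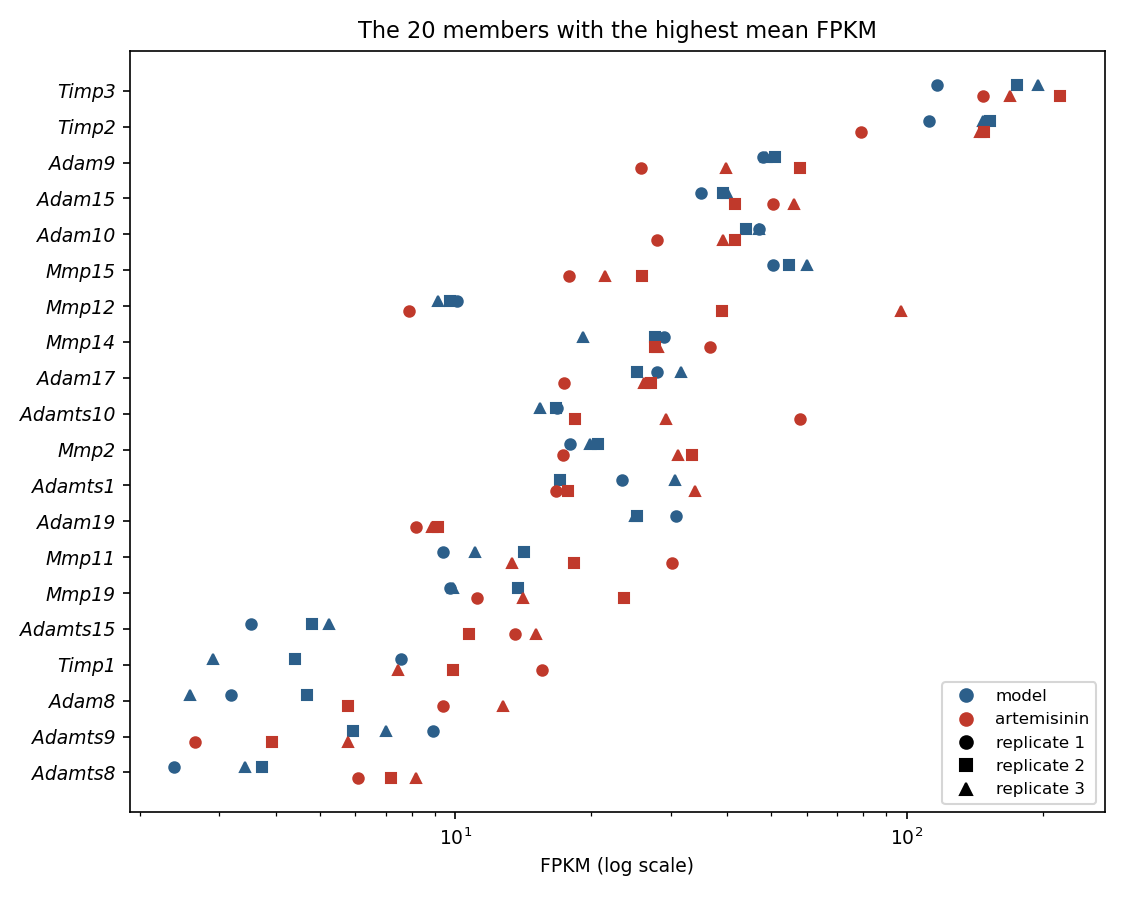
FPKM (log axis) of the 20 members with the highest mean, in each library, with model libraries in blue, artemisinin libraries in red and the marker shape giving the replicate. Timp3 and Timp2 have the highest means, Mmp12 spans from 7.90 to 97.2 FPKM across the artemisinin libraries, and the groups lie fully apart for Mmp15 and Adam19, which are lower with artemisinin, and for Adamts15 and Adamts8, which are higher. They also lie apart for 5 members that were not called: Adam10 and Adamts9 (lower) and Adam15, Adam8 and Adamts10 (higher).

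Of the 65 members, 52 passed the filter on low counts, and edgeR's quasi-likelihood test called 6 of these (Benjamini-Hochberg adjusted p below 0.05 over all 15242 genes tested). Adamts15, Adamts8 and Adamts20 rose, and Adam19, Mmp15 and Adam22 fell. Over all tested genes 2.17% were called higher and 2.3% lower. Of the tested members, 11.5% were called. The median log2 fold change of the 52 members was 0.46, beside 0.04 over all tested genes, and 67.3% of the members (35 of 52) lay above 0, beside 53.2% of all tested genes. In 19 members, or 36.5%, the 3 values of the groups did not overlap, close to the 33.6% of all tested genes. The filter keeps a gene that is high in 1 group only, so the members tested are not a neutral sample of the 65. With 3 mice per group the smallest two-sided p of an exact permutation test is 0.1. The adjusted p-values therefore lean on edgeR's dispersion estimates, which pool information over genes. They set the difference between the groups against the spread within the groups of these 6 libraries. Both groups shared 1 estimate per gene, although their biological coefficients of variation differed (0.39 with artemisinin, 0.211 in the model).

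**Figure D2:**
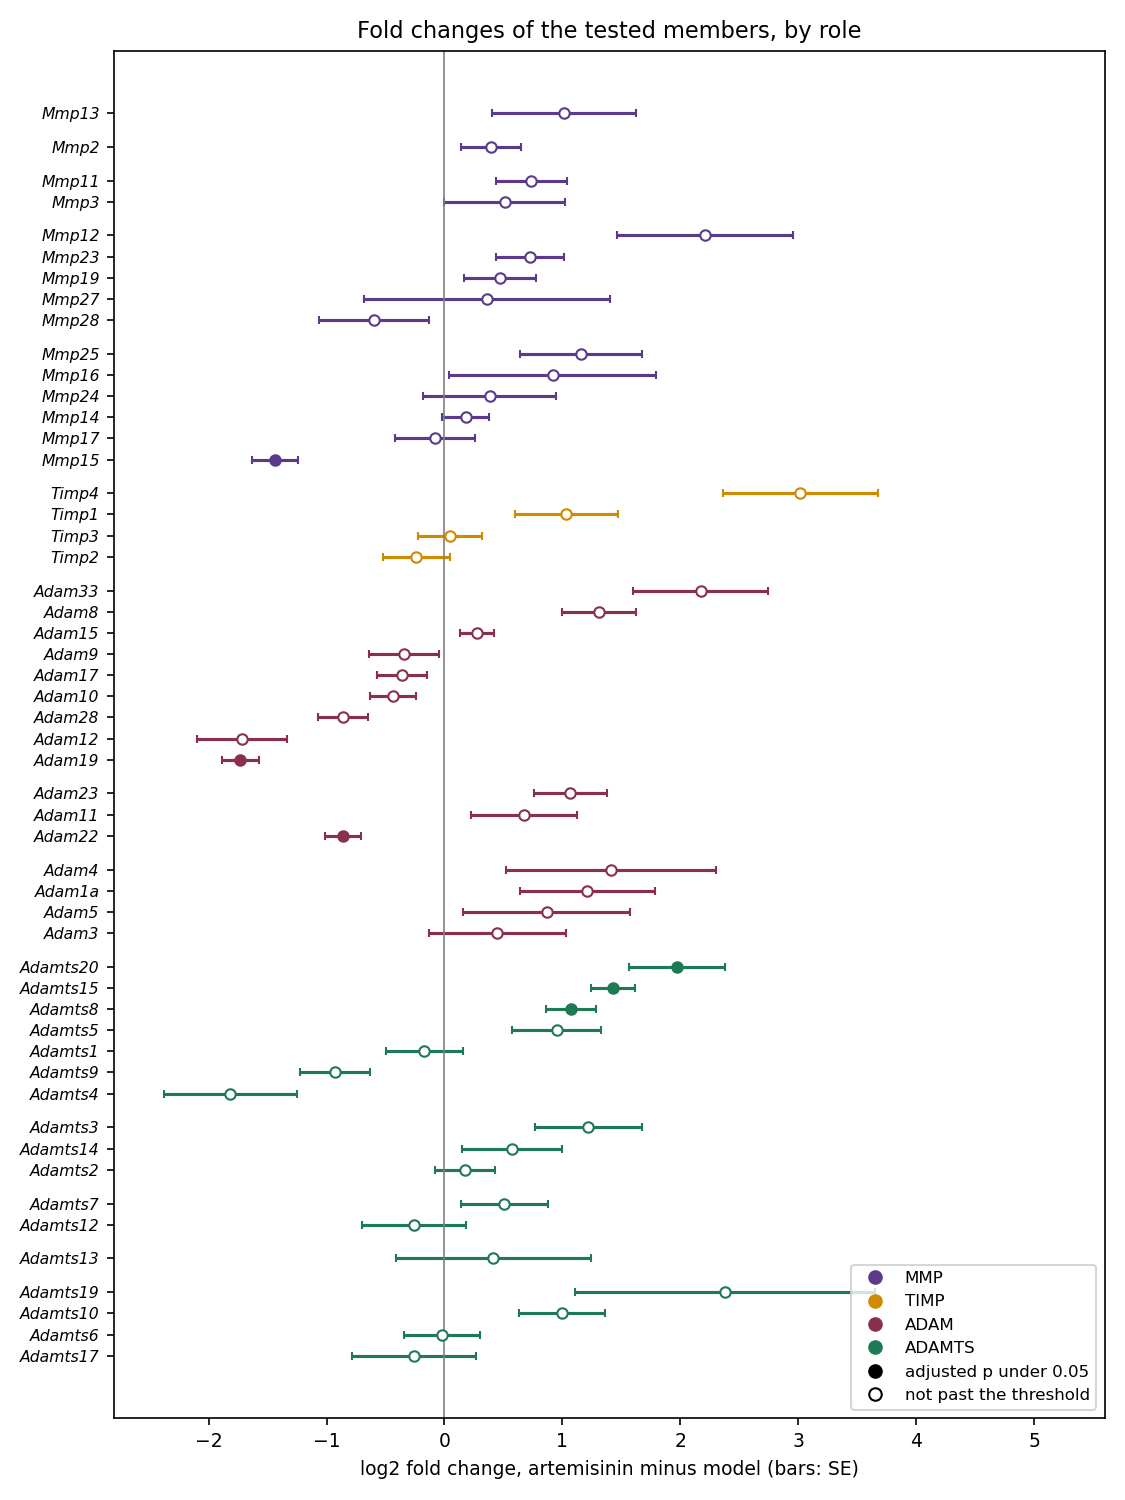
Log2 fold change (artemisinin minus model, edgeR) of each of the 52 tested members with its SE as a bar, ordered by role from MMPs at the top to ADAMTS enzymes at the bottom. Filled points passed an adjusted p of 0.05: Mmp15, Adam19 and Adam22 to the left of 0, and Adamts20, Adamts15 and Adamts8 to the right.

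Among the 6 membrane-type MMPs, which are anchored in the cell membrane, Mmp15 fell and the other 5 were not called. Mmp15 encodes MT2-MMP, a transmembrane protease (chromosome 8, 95352296 to 95374293, GRCm38, plus strand, protein coding). Its normalised CPM were 230.4, 241 and 270.4 in model replicates 1 to 3 and 72.8, 113.3 and 88 in artemisinin replicates 1 to 3. All 3 artemisinin mice lay well below the lowest model mouse. The fall was 2.71-fold (log2 −1.44 ± 0.19, SE; edgeR adjusted p = 0.017). Mmp14, the MT1-MMP that cuts collagen and activates MMP2, had 113 ± 16.4 normalised CPM with artemisinin and 99.8 ± 21.2 in the model (SD, n = 3 per group; edgeR adjusted p = 0.593). Per length, Mmp15 lay above Mmp14 in each model library (50.6, 54.8 and 60.0 FPKM against 29.0, 27.7 and 19.2) and below it in each artemisinin library (17.8, 25.9 and 21.5 against 36.7, 27.6 and 28.1). In artemisinin replicate 2 that gap was small. The summed FPKM of the 6 genes was between 81.3 and 84.4 in the model and between 54.1 and 57.0 with artemisinin. Mmp15 made up 55.6% of this sum on average and was the only gene of the 6 whose groups did not overlap. Of the 6 genes, 4 had a log2 fold change above 0, so the lower sum does not describe the whole class. Mmp25, a membrane-anchored MMP known from neutrophils, had 3.03, 7.28 and 13.3 normalised CPM in the artemisinin libraries against at most 4.08 in the model. Its groups overlapped and it was not called (edgeR adjusted p = 0.219).

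The RefSeq promoter of Mmp15 (chr8:95352046-95352345, GRCm38.p6, plus strand, 250 bases before to 50 after the start) is printed because Mmp15 is the MMP whose level fell. Capitals mark the GC box GGGCGG on either strand, the sequence bound by Sp1-type factors, which occurs in 38.2% of all genes' promoters of this length. TGANTCA, the AP-1 site known from inducible MMP promoters, does not occur in this window.
Mmp15: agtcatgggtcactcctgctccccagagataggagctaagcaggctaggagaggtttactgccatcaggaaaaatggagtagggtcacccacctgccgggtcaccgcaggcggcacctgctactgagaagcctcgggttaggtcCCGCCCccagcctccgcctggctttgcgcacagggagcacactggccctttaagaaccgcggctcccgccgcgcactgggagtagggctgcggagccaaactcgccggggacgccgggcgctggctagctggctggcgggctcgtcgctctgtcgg

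None of the 9 tested MMPs outside the membrane-type group was called, and several varied widely among the artemisinin mice. Mmp12, the macrophage elastase (chromosome 9, 7344397 to 7360461, plus strand), had 40.2, 37.3 and 36 normalised CPM in the model. The artemisinin values were 28.2, 148.4 and 347.7. Replicate 1 therefore lay below every model mouse and replicates 2 and 3 far above them. The difference was 2.21 ± 0.75 on the log2 scale (SE; edgeR adjusted p = 0.135). Without artemisinin replicate 1 it was 2.71 and called (edgeR adjusted p = 0.0372), and without artemisinin replicate 3 it was 1.17. Mmp13, the main interstitial collagenase of rodents, stood at 15.5 normalised CPM in artemisinin replicate 3 and between 3.09 and 4.42 in the other 5 libraries. Mmp3, stromelysin-1, was highest in artemisinin replicate 2 at 15.5, with the other libraries between 3.78 and 7.38. Without these libraries the log2 fold changes of Mmp13 and Mmp3 turned to −0.11 and −0.21.

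Macrophage markers were read beside Mmp12. The summed level of 6 alveolar macrophage markers was 992.5, 4515 and 2949 normalised CPM in artemisinin replicates 1 to 3 and between 2238 and 3863 in the model, with none of the 6 at 0 in any library. Of the 6, 1 was called: Marco, a scavenger receptor gene, fell to 5.42 ± 1.69 normalised CPM, beside 30.6 ± 15 in model mice (SD, n = 3 each; edgeR adjusted p = 0.0303). The other 5 were not called, with log2 differences of 2.55 for Fabp4, −0.08 for Chil3, −0.06 for Pparg, −1.12 for Ear2 and −1.64 for Siglecf. The sum of 8 markers of monocytes and interstitial macrophages was 741.4, 1121 and 1132 in artemisinin replicates 1 to 3. In the model it was between 591.6 and 665.4, again with none at 0. Of the 8, 3 were called higher: Csf1r, Cx3cr1 and Ccr2. Among the artemisinin mice, only Ccr2 and Ly6c2 of these 8 followed the order of Mmp12. Of the 6 alveolar macrophage markers only Ear2 did, at 103.7, 205.7 and 335.9 normalised CPM in artemisinin replicates 1 to 3. Csf1r, Mrc1, C1qa, C1qb and C1qc were highest in replicate 2, and Cx3cr1 in replicate 1. Artemisinin replicate 1, where Mmp12 was lowest, had the lowest sum of both lists within its group. Most of the alveolar macrophage sum was Chil3 alone, at 543.4, 4182 and 2537 normalised CPM in artemisinin replicates 1 to 3. Single alveolar macrophage markers differed: Chil3, Ear2 and Marco were lowest in replicate 1, and Siglecf, Pparg and Fabp4 in replicate 3. Fabp4 was highest in replicate 1 (303.1 normalised CPM). The sum of 4 adipocyte markers was highest in that library too (293.2 normalised CPM), and the part of adipocytes in the Fabp4 values was not tested. In such bulk RNA, fewer cells of a type and less RNA per cell cannot be told apart. The part of macrophages and monocytes in the Mmp12 values was not tested.

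Of the other secreted MMPs, Mmp2, gelatinase A, had 85.1 ± 29.1 normalised CPM with artemisinin and 64.8 ± 3.63 in the model (SD, n = 3 per group; edgeR adjusted p = 0.371). Mmp11, stromelysin-3 of stromal cells, had 65.4, 42.4 and 29 normalised CPM with artemisinin and 22.6, 33 and 26.4 in the model, and was not called (edgeR adjusted p = 0.188). Mmp19 reached 82.6 normalised CPM in artemisinin replicate 2 against 35.5 to 48.3 in the model and 36.4 and 46.3 in the other artemisinin mice. Among the 9 tested MMPs outside the membrane-type group, Mmp23 alone had groups that did not overlap. It had 7.69 to 11.4 normalised CPM with artemisinin against 4.55 to 7.01 in the model, and missed the threshold (log2 0.73 ± 0.29, SE; edgeR adjusted p = 0.18).

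**Figure D3:**
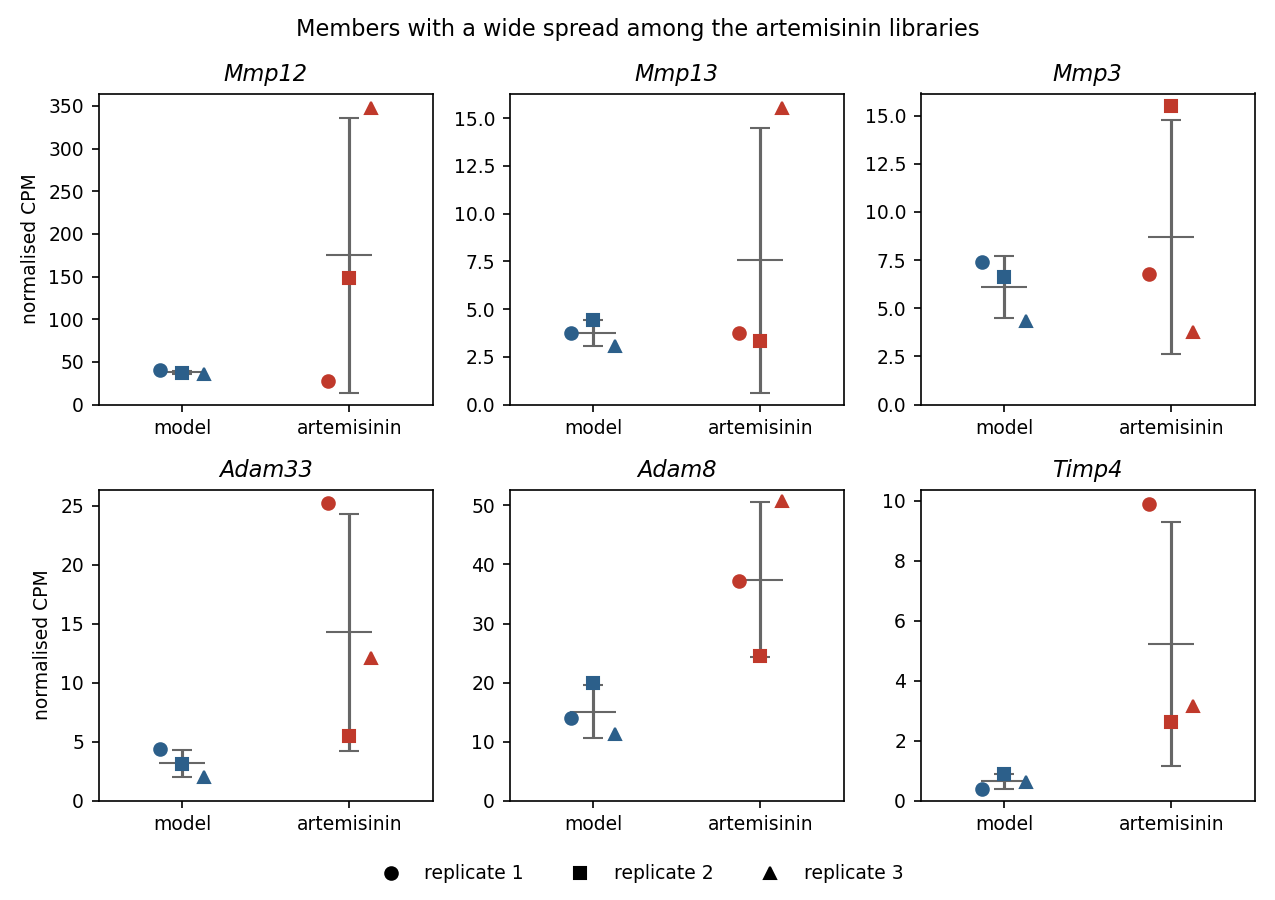
Normalised CPM of 6 uncalled members in each library, with the mean and SD of each group (n = 3) as a horizontal mark and bar. Mmp12 and Mmp13 peak in artemisinin replicate 3 (347.7 and 15.5), Mmp3 in replicate 2 (15.5), and Adam33 and Timp4 in replicate 1 (25.2 and 9.9).

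Mmp13, Mmp12, Mmp1b, Mmp3, Mmp10, Mmp27 and Mmp7 lie together on chromosome 9, between 7272514 and 7699585 (GRCm38). Their RefSeq promoters share a feature. The letters TGANTCA, searched on both strands over 250 bases before to 50 after each start, occurred in 6 of these 7 genes, in 2 of the 33 other members with a promoter in the table (Adam19 and Adam1b), and in 9% of 27025 genes. TATAAA occurred in the same windows of the same 6 genes, and in 15.7% of all genes. The TATAAA nearest to the start began 16 bases before it in Mmp13, 49 in Mmp1b, 7 in Mmp3, 29 in Mmp10 and 26 in Mmp7. In Mmp12 its position was −4 bases before the start, that is, after the start. The stretches from 120 bases before to 30 after the start are printed with TGANTCA and the TATAAA nearest to the start in capitals. They show where the AP-1 letters lie in each gene, and no link of that position to the levels was tested. The AP-1 letters begin 35 bases before the start in Mmp13 and 44 in Mmp12 (at the downstream of 2 RefSeq starts). In Mmp1b they begin 93 bases before it, in Mmp3 46, and in Mmp10 and Mmp7 63. The windows are chr9:7272394-7272543 for Mmp13, chr9:7347254-7347403 for Mmp12, chr9:7387997-7388146 (minus strand) for Mmp1b, chr9:7445702-7445851 for Mmp3, chr9:7502222-7502371 for Mmp10 and chr9:7691970-7692119 for Mmp7, all GRCm38.p6.
Mmp13: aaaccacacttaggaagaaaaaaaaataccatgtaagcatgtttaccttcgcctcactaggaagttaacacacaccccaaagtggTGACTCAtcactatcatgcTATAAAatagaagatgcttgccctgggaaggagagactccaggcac
Mmp12: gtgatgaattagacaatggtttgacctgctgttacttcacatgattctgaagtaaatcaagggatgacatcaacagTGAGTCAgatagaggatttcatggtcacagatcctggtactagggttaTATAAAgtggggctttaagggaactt
Mmp1b: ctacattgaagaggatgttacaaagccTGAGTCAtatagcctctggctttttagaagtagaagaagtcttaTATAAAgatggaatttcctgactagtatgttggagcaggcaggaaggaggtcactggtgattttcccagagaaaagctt
Mmp3: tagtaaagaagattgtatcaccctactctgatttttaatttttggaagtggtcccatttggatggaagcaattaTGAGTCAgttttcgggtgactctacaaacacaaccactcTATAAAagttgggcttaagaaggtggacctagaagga
Mmp10: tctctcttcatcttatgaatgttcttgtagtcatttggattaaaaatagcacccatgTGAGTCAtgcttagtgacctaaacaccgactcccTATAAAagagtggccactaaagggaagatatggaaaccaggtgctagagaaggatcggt
Mmp7: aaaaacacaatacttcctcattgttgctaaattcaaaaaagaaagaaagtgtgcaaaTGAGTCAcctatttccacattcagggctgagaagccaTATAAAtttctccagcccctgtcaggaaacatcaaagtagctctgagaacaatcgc

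These 7 neighbours did not share 1 pattern across libraries. Mmp12, Mmp13 and Mmp27 were highest in artemisinin replicate 3 and Mmp3 in artemisinin replicate 2. Mmp27, whose window holds no TGANTCA, had 19, 1 and 49 counts in the artemisinin libraries and 15, 30 and 9 in the model. Mmp10, stromelysin-2, had 11 counts in model replicate 1, 8 in model replicate 2, 4 in artemisinin replicate 3 and 0 in the others. Mmp7, the matrilysin of epithelia, had 1, 1 and 3 counts in the artemisinin libraries and 0 in the model, and Mmp1b had 1 count in all. A match to these letters is a description of the sequence, and no binding was measured.

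The 4 inhibitor genes were not called. Timp4, the least widespread TIMP (chromosome 6, 115244444 to 115252205, GRCm38, minus strand), had 0.395, 0.895 and 0.63 normalised CPM in the model and 9.9, 2.62 and 3.15 with artemisinin. All artemisinin mice lay above all model mice, and replicate 1 was far above the other 2. The difference was 3.02 ± 0.66 on the log2 scale (SE; edgeR adjusted p = 0.0501), just outside the threshold, with raw counts of 268, 83 and 110 against 13, 29 and 20. Timp4 was called without artemisinin replicate 2 (log2 3.34; edgeR adjusted p = 0.029) and with DESeq2. With all 6 libraries it was also called under DESeq2 size factors and library totals (edgeR adjusted p = 0.0491 and 0.047). No call was made without the filter, with the replicate block, in either limma fit or without any other single library. The summed level of 4 adipocyte markers was also highest in artemisinin replicate 1, at 293.2 normalised CPM against 11.9 and 47.2 in the other artemisinin mice and 4.43 to 14.6 in the model, and 1 of these markers was at 0 in a library. Its part in the Timp4 values was not tested.

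Timp1, an inducible secreted inhibitor, had 13, 8.85 and 6.27 normalised CPM with artemisinin and 7.07, 3.98 and 2.68 in the model (edgeR adjusted p = 0.199). Its groups overlapped by 1 model mouse. Timp2 had 437.7 ± 146 normalised CPM with artemisinin and 516 ± 75.9 in the model, and Timp3 had 813.9 ± 200 and 787.8 ± 192 (SD, n = 3 per group; edgeR adjusted p = 0.623 and 0.924). The sign of both small differences changed when single libraries were left out. Timp1, Timp3 and Timp4 sit on the opposite strand within synapsin genes: Syn1, Syn3 and Syn2 in that order, with overlapping exons for Timp3 and Timp4. Syn3 fell (log2 −1.51; edgeR adjusted p = 0.0453) from 7.52 to 2.64 normalised CPM, small beside Timp3, while Syn2, at 11.9 with artemisinin and 7.13 in the model, was not called (edgeR adjusted p = 0.267). The strand setting of the counting was not given, so reads of Timp4 and Syn2 may not have been fully told apart.

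The 9 somatic ADAM proteases moved in both directions, with 1 fall past the threshold and a median log2 fold change of −0.36. Adam19, or meltrin beta, cuts neuregulin and other membrane proteins (chromosome 11, 46054502 to 46147347, GRCm38, plus strand). It had 230.7, 182 and 184.7 normalised CPM in the model and 54.7, 65.6 and 59.6 with artemisinin. Both groups were tight and lay far apart. The fall was 3.32-fold (log2 −1.73 ± 0.16, SE; edgeR adjusted p = 0.00711), and Adam19 was the 1 member still called when any single library was left out. Adam12, meltrin alpha and its close relative, had 12.8, 9.97 and 7.82 normalised CPM in the model and 1.74, 3.81 and 3.75 with artemisinin. These values did not overlap, and the log2 difference of −1.72 ± 0.38 (SE) narrowly missed the threshold (edgeR adjusted p = 0.0517).

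1 of the 3 RefSeq promoters of Adam19 (chr11:46055734-46056033, GRCm38.p6, plus strand) holds both TGANTCA, beginning 131 bases before the start, and a GC box. It is printed in full, with both in capitals, because Adam19 had the smallest adjusted p of the members.
Adam19: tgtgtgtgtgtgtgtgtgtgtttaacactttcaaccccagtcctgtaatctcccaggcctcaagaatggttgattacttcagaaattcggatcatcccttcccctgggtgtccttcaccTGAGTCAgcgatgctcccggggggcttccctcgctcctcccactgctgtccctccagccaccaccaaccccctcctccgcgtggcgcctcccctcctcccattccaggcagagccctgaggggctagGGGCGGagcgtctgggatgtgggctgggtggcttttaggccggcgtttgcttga

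Adam8 and Adam33 had higher values in all 3 artemisinin mice without being called. Adam8, a protease of leukocytes, had 37.1, 24.5 and 50.7 normalised CPM with artemisinin and 14, 20 and 11.3 in the model (log2 1.31 ± 0.32, SE; edgeR adjusted p = 0.0639). The sum of 10 neutrophil markers, of which 6 were called higher and none was at 0, was 881.2, 1157 and 5036 normalised CPM in the same mice and between 164.3 and 221.6 in the model. Adam33, known from airway smooth muscle and fibroblasts, had 25.2, 5.51 and 12.1 against 4.34, 3.12 and 2.02 normalised CPM (log2 2.17 ± 0.57, SE; edgeR adjusted p = 0.079). The 7 smooth muscle markers were all called higher, with a sum of 1780, 1879 and 1047 against 268 to 413.4, and the 8 fibroblast and pericyte markers summed to 1202, 2108 and 1314 against 962.3 to 1148, with 1 called higher. None of these markers was at 0 in any library. The part of these cells in the Adam8 and Adam33 values was not tested. Adam28, made by lymphocytes and epithelia, had 19, 14.8 and 15.7 normalised CPM with artemisinin and 36.1, 31.2 and 22.4 in the model (edgeR adjusted p = 0.0699).

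None of the broadly expressed sheddases was called. Adam17, the converting enzyme of tumour necrosis factor, had 102.6 ± 25.7 normalised CPM with artemisinin and 131.9 ± 16.2 in the model (SD, n = 3 per group; edgeR adjusted p = 0.327). Adam10, which sheds Notch and E-cadherin, had 125.3, 199.9 and 175.9 normalised CPM against 234.9, 212.2 and 231.9 and no overlap, but was not called (edgeR adjusted p = 0.22). Adam9 lay at 99.9 to 240.9 with artemisinin, on both sides of its narrow model range of 207.9 to 213.1. Adam15 was at 126.9 to 160.6 against 110.9 to 125 (edgeR adjusted p = 0.274). Artemisinin replicate 1 had the lowest value of all 6 libraries for Adam9, Adam10 and Adam17.

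Adam22, Adam23 and Adam11 lack a working catalytic site and are known as neuronal receptors for LGI proteins. Adam22 fell (chromosome 5, 8072347 to 8368312, GRCm38, minus strand), from 25.6, 23.0 and 28.3 normalised CPM in the model to 14.3, 13.9 and 14 with artemisinin. The artemisinin values were nearly equal. The fall was 1.82-fold (log2 −0.86 ± 0.15, SE; edgeR adjusted p = 0.0297). Adam23 lay the other way, at 10.7, 10.2 and 6.15 against 3.89, 5.19 and 3.84 normalised CPM, and was not called (edgeR adjusted p = 0.0993). Adam11 stood at 1.92 to 3.09 against 1.07 to 2.22, and its groups overlapped.

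**Figure D4:**
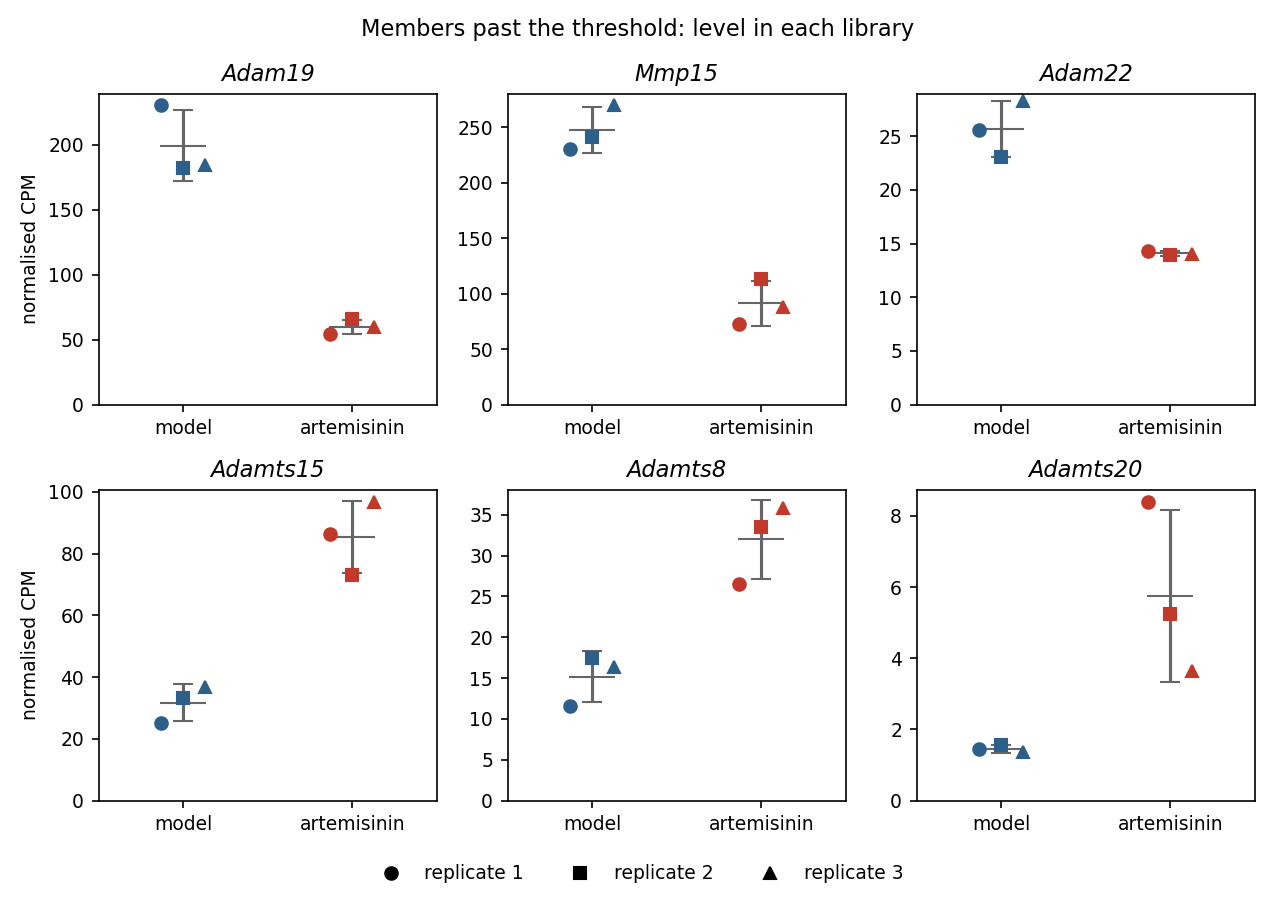
Normalised CPM of the 6 called members in each library, with the mean and SD of each group (n = 3) as a horizontal mark and bar and axes from 0. Adam19, Mmp15 and Adam22 are lower in all 3 artemisinin libraries, and Adamts15, Adamts8 and Adamts20 are higher in all 3.

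The 7 ADAMTS proteoglycanases, enzymes that cut aggrecan and versican, did not move as one: 3 rose, none fell past the threshold, and the median log2 fold change was 0.95. Adamts15 (chromosome 9, 30899155 to 30922452, GRCm38, minus strand) had 25.1, 33.1 and 36.9 normalised CPM in the model and 86.5, 73.1 and 96.6 with artemisinin. The lowest artemisinin value was well above the highest model value. The rise was 2.69-fold (log2 1.43 ± 0.19, SE; edgeR adjusted p = 0.016). Adamts8, an enzyme abundant in lung (chromosome 9, 30942562 to 30963838, plus strand), had 11.6, 17.5 and 16.4 normalised CPM in the model and 26.5, 33.6 and 35.8 with artemisinin. Here too the groups lay apart, with a 2.11-fold rise (log2 1.08 ± 0.21, SE; edgeR adjusted p = 0.0378). Adamts15 and Adamts8 are neighbours that point away from each other, with 20110 bases between their 5′ ends. Adamts20, known from versican cleavage in palate and skin (chromosome 15, 94268314 to 94432074, minus strand), had 1.46, 1.57 and 1.36 normalised CPM in the model and 8.39, 5.23 and 3.64 with artemisinin. It rose 3.92-fold from a low level (log2 1.97 ± 0.41, SE; edgeR adjusted p = 0.0434).

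Adamts4 and Adamts9 of the same group had lower values in all 3 artemisinin mice, without a call. Adamts4, the aggrecanase-1 that inflammation induces, had 12.4, 7.63 and 4.98 normalised CPM in the model and 1.03, 4.03 and 2 with artemisinin (log2 −1.82 ± 0.56, SE; edgeR adjusted p = 0.113). Without artemisinin replicate 2 it was called lower (log2 −2.44; edgeR adjusted p = 0.043). Adamts9 had 75.9, 48.5 and 59.1 normalised CPM in the model and 20.2, 31.9 and 44.1 with artemisinin (edgeR adjusted p = 0.12). Adamts5, aggrecanase-2, had 28.7 ± 9.45 with artemisinin and 14.8 ± 6.73 in the model (SD, n = 3 per group; edgeR adjusted p = 0.179). Adamts1, its neighbour on chromosome 16 and the most abundant gene of the group at 23.3 FPKM, had overlapping values of 76.9 to 157 and 84.9 to 156.3 normalised CPM.

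Other ADAMTS genes were not called. Adamts10, which binds fibrillin, had 282.6, 96 and 143.2 normalised CPM with artemisinin and 91.4, 87.6 and 82.8 in the model. The groups did not overlap, but replicate 1 was far above the others. The log2 difference of 0.99 ± 0.36 (SE; edgeR adjusted p = 0.155) was 0.45 without that library and 1.28 without artemisinin replicate 2. Adamts2, a procollagen N-proteinase, had 30.6 ± 10.1 normalised CPM with artemisinin and 27.2 ± 4.71 in the model (SD, n = 3 per group; edgeR adjusted p = 0.696), and its relatives Adamts3 and Adamts14 were not called either. Adamts12, which cuts cartilage oligomeric matrix protein, had 3.53 ± 1.03 and 4.22 ± 1.89. Adamts13, the von Willebrand factor protease made mainly in liver, was at most 0.693 normalised CPM in any library.

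The remaining 13 ADAM genes are mostly known from testis and epididymis and were low. Of these, 4 were tested and none was called. Adam1a led them with 9.94, 2.11 and 3.81 normalised CPM with artemisinin against 2.11 to 2.53 in the model (edgeR adjusted p = 0.239), and it shares exon positions with Mapkapk5 on the same strand. Across the whole set, 13 members were not tested, with at most 27 counts in any library. Adam21, with 13 counts in artemisinin replicate 1, and Adamts18, with 11 in model replicate 1, reached 10 counts in 1 library only, as Mmp10 did. At this depth 3 counts correspond to 0.0863 to 0.117 CPM, and 3 of these genes (Mmp10, Mmp7 and Mmp1b) are given above by their counts. Fitted without the filter on low counts, none of the 13 was called by edgeR (lowest adjusted p = 0.222, for Adam7).

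The calls of the members depended on single libraries. Without artemisinin replicate 2, the library with muscle and skin markers, 7 members were called higher and 5 lower: the 6 already named, with Adam33, Adam8, Adamts10 and Timp4 higher and Adam12 and Adamts4 lower. Calls over all genes rose too, to 670 higher and 713 lower from 331 and 351. Without artemisinin replicate 1, 2 were higher and 2 lower, among them Mmp12. Without artemisinin replicate 3 the numbers were also 2 and 2. Without model replicate 1, 2 or 3, 0 members were called higher and Adam19 alone lower. At those settings edgeR gave 13, 17 and 14 members an unadjusted p under 0.05, where all 6 libraries gave 21. Over all genes these counts were 2311, 2995, 2400 and 3758, and with all 6 libraries the share was 40.4% of tested members beside 24.7% of tested genes. Every such fit also has 1 mouse fewer. DESeq2 called 8 members higher and 7 lower, including all 6. The 6 log2 fold changes kept their sign in every setting run and ranged over −1.82 to −1.52 for Adam19, −1.62 to −1.30 for Mmp15 and 1.28 to 1.55 for Adamts15. They ranged over 0.91 to 1.19 for Adamts8, 1.60 to 2.18 for Adamts20 and −0.96 to −0.47 for Adam22. Over the settings run, Adam19 was called in 13 of 13, Mmp15 and Adamts15 in 10 of 13, Adamts8 in 7 of 13, Adamts20 in 6 of 11 and Adam22 in 5 of 13. Adamts8, Adamts20 and Adam22 lost the call with the replicate block, and Adam22 also in both limma fits.

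**Figure D5:**
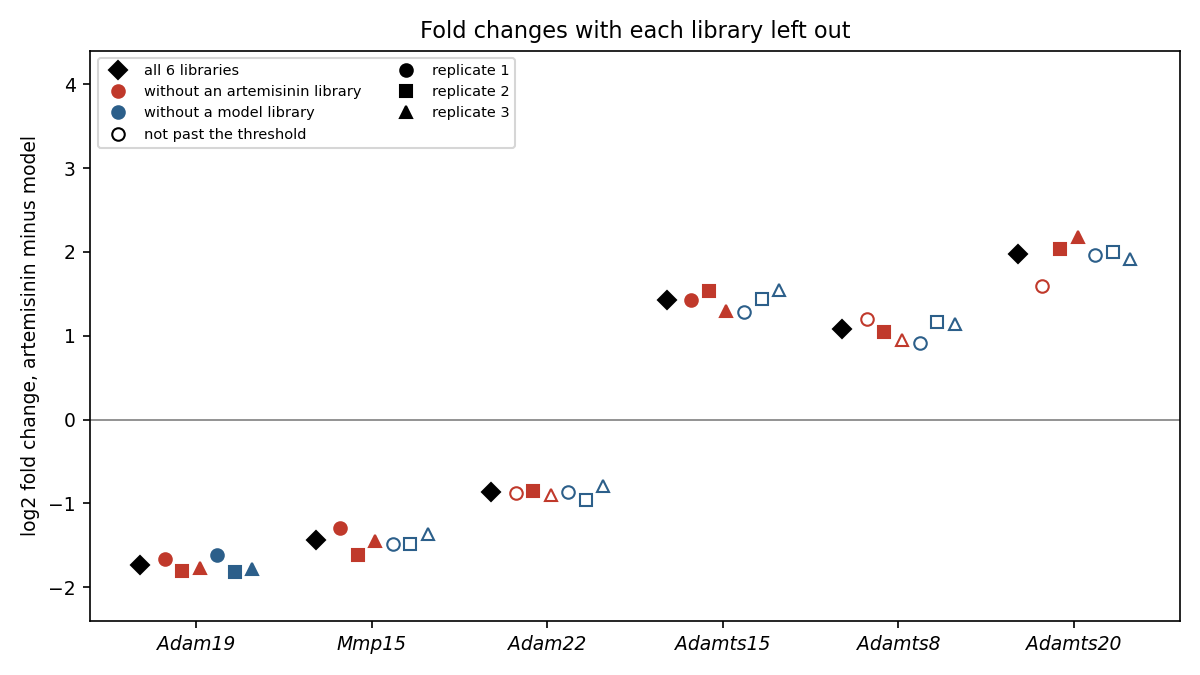
Log2 fold changes (artemisinin minus model, edgeR) of the 6 called members with all 6 libraries (black diamond) and with each library left out, where colour gives the group of the library left out and shape its replicate. Open symbols did not pass an adjusted p of 0.05; Adam19 is filled throughout, and all other members are open without any 1 model library.

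Genes that work with these enzymes were read from lists of partners and substrates. Of 15 tested matrix substrates 1 rose and none fell. It was Vcan, which encodes versican, a proteoglycan cut by ADAMTS enzymes, with 5.74, 5.13 and 4.73 normalised CPM in the model and 31.2, 46.3 and 27.1 with artemisinin (6.71-fold; log2 2.75 ± 0.25, SE; edgeR adjusted p = 0.00682). The median log2 fold change of the matrix substrates was 0.56. Among the 16 tested substrates shed by ADAMs, Ereg and Areg, the genes of the EGF receptor ligands epiregulin and amphiregulin, fell. Their normalised CPM were 3.93 ± 1.16 and 3.63 ± 1.58 under artemisinin, beside 19.6 ± 5.21 and 13.8 ± 4.6 in model mice (SD, n = 3 each; edgeR adjusted p = 0.0182 and 0.0478). Adam17, their known sheddase, was not called.

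Of the 6 ADAMTS-like genes, whose proteins resemble ADAMTS enzymes without the protease part, Adamtsl2 rose 2.06-fold (53.97 ± 3.16 against 26.2 ± 2.85 normalised CPM; SD, n = 3 per group; edgeR adjusted p = 0.0162) and the other 5 were not called. None of 8 tested partners of ADAM17 and ADAM10 was called, with a median log2 fold change of 0.17. None of 11 tested genes of protease activation and other inhibition was called either, and their median was −0.17. In that list Pcsk6, a proprotein convertase, had 18.7 normalised CPM with artemisinin and 68.7 in the model, with no overlap (edgeR adjusted p = 0.094).

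Markers of lung cell types moved beside the called members. The summed level of 7 alveolar type 2 markers, of which 5 were called lower, was 14550, 18660 and 6095 normalised CPM with artemisinin and between 44320 and 66490 in the model, with none at 0. The 5 alveolar type 1 markers overlapped, at 1488 to 3295 against 2080 to 2711, as did the 6 endothelial markers, at 1543 to 3577 against 1681 to 2890. The smooth muscle sums given with Adam33 also lay apart between the groups. The part of these cell types in the falls of Adam19, Mmp15 and Adam22 and in the rises of the ADAMTS genes was not tested.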

How the data were processed

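RNA of 6 mice was sequenced. Per the labels' protocols, mirVana was used for RNA extraction and TruSeq Stranded mRNA for library preparation. Per the submitters' processing notes the build was GRCm38 (mm10); the aligner, the counter, its strand setting and the annotation are not given in the sources used here. Raw counts per gene and FPKM were deposited by the authors, both with 18238 genes. The FPKM rescale the same counts (largest relative gap 3.1e-07) and are not independent evidence.

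Counts were fitted over all genes with edgeR 4.0.16 in R 4.3.3 (filterByExpr, TMM, robust quasi-likelihood, Benjamini-Hochberg over 15242 genes, threshold 0.05); each SE is the log2 difference over the root of its F value. DESeq2 1.42.0 and limma 3.58.1 (trend, log2(FPKM + 0.1) or + 1, mean of at least 0.5 FPKM, a scale that understates changes of low genes) were alternatives, with other scalings, no filter, a replicate block and each library left out. The fits were tested on simulated data. There both groups had the same dispersion per gene, unlike the groups here (biological coefficient of variation 0.39 against 0.211). The simulation therefore cannot show how the calls hold under unequal spread. Members, role lists and marker lists were chosen with earlier results of these data known. Named were 28 members listed whatever their result, every called member, the most abundant of each role and members with at least 10 counts in 1 library only; others named, such as Mmp23, Mmp25, Adam23, Adamts3, Syn3 and Pcsk6, were chosen after their values were seen. Coordinates, matched by Entrez number for all 65, and promoters, found for 40, are RefSeq's (GRCm38.p6); overlaps are from GENCODE M21. Some results on genes outside the set, 1 called shed substrate among them, are not reported here.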

Additional observations from a re-analysis of the deposited data

How the results depend on the processing

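The counts of called members and of all called genes moved with the tool and with single libraries. DESeq2 called 1234 genes higher and 1052 lower, with 8 and 7 members, against 331, 351, 3 and 3 in edgeR. With the replicate block edgeR called 65 genes higher and 63 lower, with 1 and 2 members. The labels share replicate numbers without saying what they stand for. The deviations of same-numbered libraries from their group means had correlations of −0.00395, −0.103 and 0.0303. For differently numbered libraries they lay between −0.0993 and 0.1. With 3 libraries per group, such values cannot decide whether the numbers mark pairs. With 1 library left out, between 6 and 670 genes were called higher and 11 and 713 lower, and between 0 and 7 members higher and 1 and 5 lower. Scaling by library totals shifted the median over all genes from 0.04 to 0.15 (log2) and the split of calls to 464 against 319, with 4 and 3 members. Limma on FPKM, with 38 members tested, called 2 and 2.

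Of 34 named members tested, 26 kept their sign in all settings. The other 8, none of them called, changed sign with a library left out, and their log2 fold changes then ranged from −0.60 to 0.057 for Adamts1, −0.56 to 0.089 for Adamts12, −0.023 to 1.73 for Adamts13, −0.13 to 0.30 for Adamts2, −0.11 to 1.37 for Mmp13, −0.21 to 0.82 for Mmp3, −0.43 to 0.014 for Timp2 and −0.17 to 0.20 for Timp3 (−0.14 without model replicate 1). Each of these fits also had fewer mice, and the cause of the sign changes was not tested. The 13 members outside the main filter had at most 27 counts in a library.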
